A study of Mus musculus with 10 samples.

Results

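Collagens are the triple-helical proteins of the extracellular matrix, and their genes were examined here in the cerebellum of *Dscam* mutant mice. Every gene whose symbol is Col, a number, the letter a and a number was taken from the annotation, which gave 44 genes, all protein-coding, among 53447 listed genes. The 2 genotypes, 5 cerebella each with 1 library per mouse, were *Dscam* del17/del17 (labelled DscamKO), homozygous for del17, a deletion in exon 17 of *Dscam* that arose spontaneously, removes its function and is carried by all cells of the body, and WT littermates (labelled Control). All mice were P21, with BALB/c given as the strain, and mice of both sexes were used without a sex in the labels. RNA of the whole cerebellum was sequenced, so these values hold neurons, glia, vessels, meninges and any attached choroid plexus together. In such bulk samples, fewer cells of a type and less RNA per cell cannot be told apart. Levels are in TPM (transcripts scaled to a fixed total per library), although the listed values did not sum to the same total in every library. TPM are divided by transcript length, so the levels of different genes can be set side by side, but only differences in length are allowed for.

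A collagen is built from 3 chains that wind around each other, and the chains of 1 protein often come from different genes. Fibrillar collagens form the cables of connective tissue, type IV collagen forms the sheet of basement membranes, type VI forms beaded microfibrils, and the FACIT collagens (fibril-associated collagens with interrupted triple helices) sit on the surface of fibrils. Transmembrane collagens stay attached to the cell, and the multiplexins, types XV and XVIII, lie in basement membrane zones. In the brain, interstitial matrix is sparse, and collagen is best known from the meninges, the walls of blood vessels and the basement membrane at the pial surface.

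Of the 44 genes, 32 were expressed, here meaning 0.5 TPM or more in 5 or more libraries. The most abundant was *Col18a1* (ENSMUSG00000001435), whose product carries the angiogenesis inhibitor endostatin at its end. The genotypes had nearly the same amount of collagen mRNA, with 312 ± 29.4 TPM summed over the 44 genes in *Dscam* del17/del17 and 320 ± 26.0 TPM in WT cerebella (SD, n = 5 each). A single gene, *Col9a1* (ENSMUSG00000026147), which encodes a chain of the FACIT collagen type IX, had all its mutant values below all its WT values. It did not pass the threshold after adjustment over all genes, and neither did any other collagen gene.

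The stretches upstream of the start sites of the genes that stand out are shown because they are where their transcription begins: *Col9a1*, *Col6a2* (the gene with the next smallest p) and *Col18a1* (the most abundant). Sequences and start sites are from RefSeq on GRCm38.p6, matched by symbol for 35 of the 44 genes, and bases that belong to an exon are left out. *Col9a1* has a further start site inside the gene, from which a shorter chain without the large amino-terminal domain is made. Each sequence runs 5′ to 3′ on the strand of its gene, with capitals marking a GC box (GGGCGG, or CCGCCC on the other strand) or a CCAAT box (CCAAT, or ATTGG on the other strand).
Col9a1, first start site, chr1:24177360-24177609, plus strand: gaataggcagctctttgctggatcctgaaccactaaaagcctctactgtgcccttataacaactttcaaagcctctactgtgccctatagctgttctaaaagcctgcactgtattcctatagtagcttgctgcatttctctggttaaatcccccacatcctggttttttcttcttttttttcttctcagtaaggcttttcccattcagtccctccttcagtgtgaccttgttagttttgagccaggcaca
Col9a1, inner start site, chr1:24194953-24195186, plus strand: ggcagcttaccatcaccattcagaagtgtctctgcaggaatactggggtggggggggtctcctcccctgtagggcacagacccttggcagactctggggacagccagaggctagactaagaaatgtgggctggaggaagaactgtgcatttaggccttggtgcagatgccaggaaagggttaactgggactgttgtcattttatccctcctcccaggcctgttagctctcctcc
Col6a2, chr10:76623631-76623880, minus strand: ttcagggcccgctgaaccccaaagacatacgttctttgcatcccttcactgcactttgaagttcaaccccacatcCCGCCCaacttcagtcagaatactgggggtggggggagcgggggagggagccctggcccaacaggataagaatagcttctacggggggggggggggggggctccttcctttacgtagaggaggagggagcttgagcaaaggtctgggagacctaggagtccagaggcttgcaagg
Col18a1, chr10:77166549-77166780, minus strand: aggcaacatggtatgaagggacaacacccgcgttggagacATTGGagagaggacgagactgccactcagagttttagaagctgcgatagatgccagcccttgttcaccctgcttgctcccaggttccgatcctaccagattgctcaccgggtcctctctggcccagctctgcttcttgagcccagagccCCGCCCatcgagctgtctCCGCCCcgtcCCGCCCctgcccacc
*Col6a2* and *Col18a1* also have an inner start site, which lies mostly among exon bases and is not shown. The *Col9a1* stretches hold neither box (a CCAAT box of the inner window is in its left-out exon bases), that of *Col6a2* holds 1 GC box, and that of *Col18a1* holds 3 GC boxes and 1 CCAAT box. Over whole windows of 250 bases, 38 windows of 35 collagen genes were read, of which 22 held a GC box, 13 a CCAAT box and 5 a TATA box (TATAAA, either strand). A SOX motif (ACAAAG or ACAATG, either strand) was in 4 of them. Among all 32851 windows of that length, a GC box was in 32.7%, a CCAAT box in 33.8%, a TATA box in 12.4% and a SOX motif in 25.2%. The median GC content was 59% in the collagen windows and 52.4% in all windows. Such a match of letters is a description and shows no binding.

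In 24 of the 44 genes, every library reached 1 TPM, and in 8 genes the mean over the 10 libraries was at least 10 TPM. *Col18a1* was above 91.4% of the listed protein-coding genes by its mean, and *Col9a3*, which encodes another chain of type IX collagen, above 87.4%. The 2 most abundant genes held 35.6% to 39.1% of the summed collagen TPM in the mutant libraries and 35.5% to 39.8% in the WT libraries. Some genes hardly varied between mice, with a highest value 1.36 times the lowest for *Col6a1* and 1.37 times for *Col9a3*, while that of *Col9a2* was 8.53 times the lowest. Below the expression limit were 12 genes, with single values of at most 0.964 TPM. Among them were chains with known roles elsewhere, such as *Col10a1* of hypertrophic cartilage, listed at 0 in 8 libraries, and *Col4a3* and *Col4a4* of the kidney glomerulus.

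**Figure D1:**
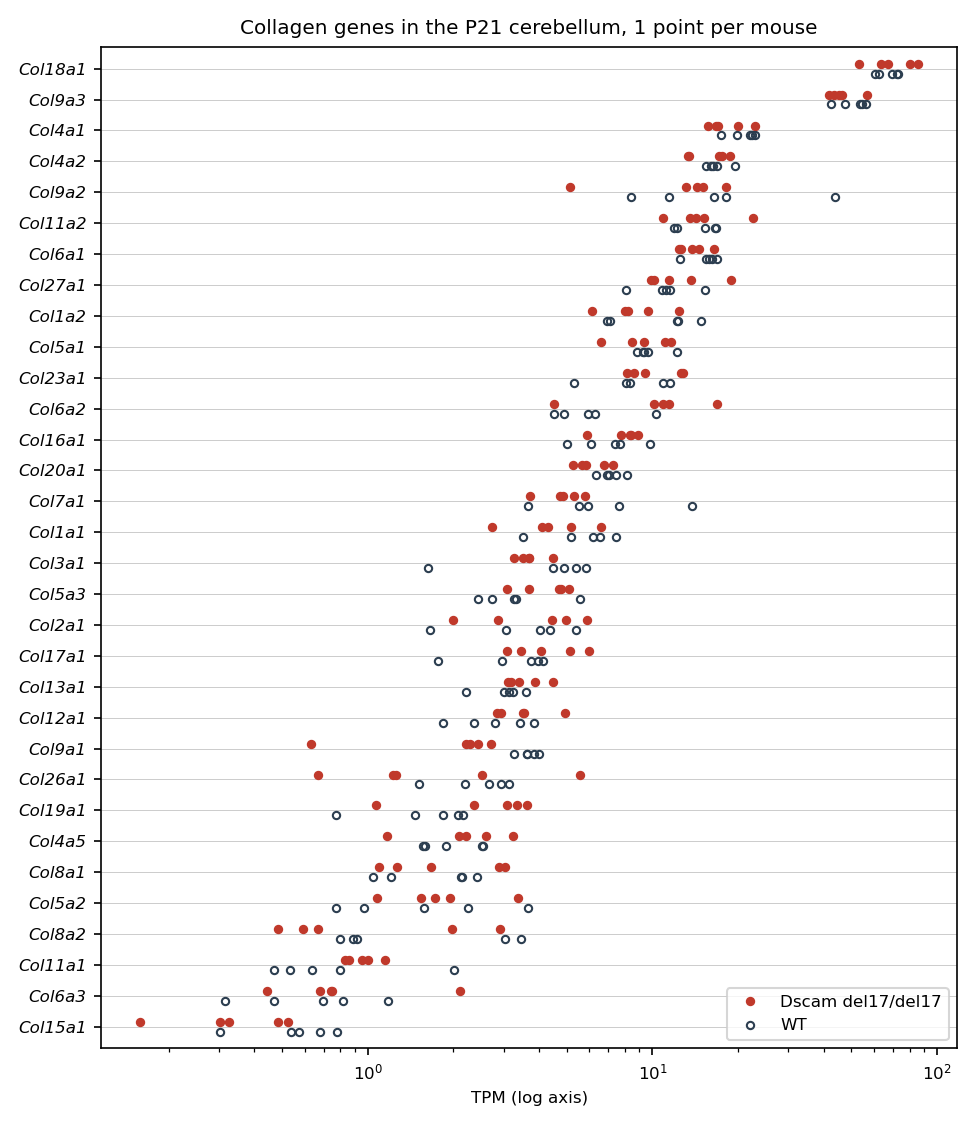
TPM of the 32 expressed collagen genes, ordered by their mean, on a log axis, with 1 point per mouse for *Dscam* del17/del17 (filled, upper row of each gene) and WT (open, lower row). *Col18a1* leads at 53.2 to 85.7 TPM in mutant and 60.6 to 72.6 TPM in WT cerebella, and *Col9a1* is the gene whose rows do not overlap.

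The libraries listed TPM sums of 775148 to 805869 in the mutant and 684771 to 838532 in WT, and the number of reads behind them is not kept in TPM. WT replicate 5 stood apart, with 15623 genes at 0.5 TPM or more (17101 to 17763 in the other 9 libraries) and 15206 TPM of mitochondrially encoded mRNA (23124 to 44973 TPM in the others), and log2 fold changes over 0.2 in size that it moves by over 1.5 times are also given without it. *Dscam* mRNA had 4.37 ± 0.979 TPM in mutant and 7.72 ± 1.15 TPM in WT cerebella (log2 fold change -0.82, adjusted p = 0.779 from limma) and did not overlap (exact permutation test, two-sided, p = 0.0079). Markers of Purkinje and granule cells were abundant in all libraries, with summed levels of 3063 to 3707 and 2382 to 2899 TPM in the mutant and 3130 to 3717 and 2397 to 3170 TPM in WT, as the labelled tissue requires.

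The genotypes were compared on log2(TPM + 0.1) for the 17168 genes at the expression limit, using limma with Benjamini-Hochberg adjustment over all of them and a threshold of 0.05. Fold changes are mutant minus WT on this scale, which understates those of low genes. None of the 32 collagen genes passed (0 of 32, beside 0.0% of all genes). Before adjustment, 1 of 32 was lower with p under 0.05 and 0 were higher, whereas 3.26% of all tested genes were lower and 2.29% higher at that level, 5.55% in either direction. In direction, 17 collagen genes had a positive log2 fold change and 15 a negative one, with a median of 0.04 beside the 0.05 of all 17168 genes, of which 9613 were above 0. The size of the change was under 0.5 in 28 of 32 collagen genes, as in 78% of all genes. The 95% interval included 0 in 31 of the 32, but in 13 it reached 1 or -1, so a 2-fold difference in these 13 is within what the data allow.

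**Figure D2:**
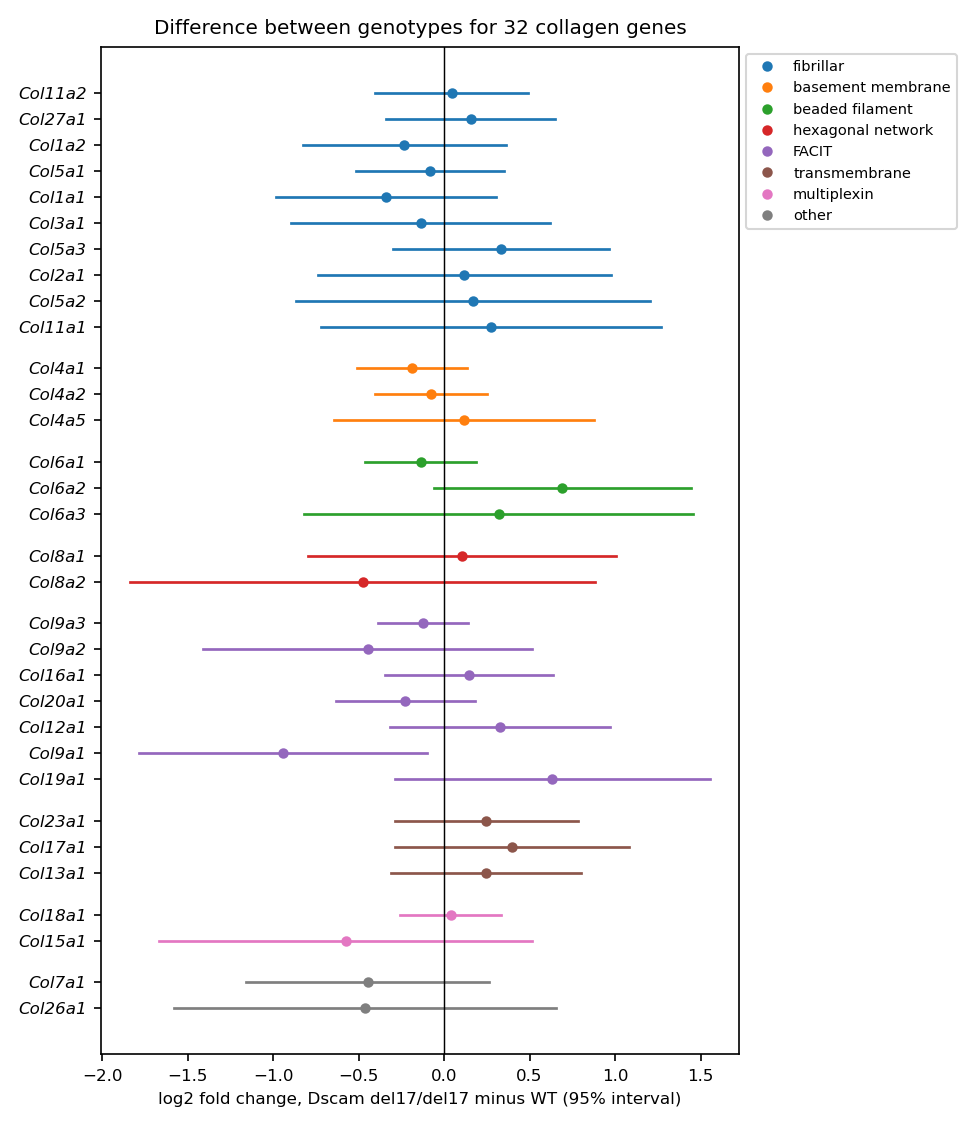
Log2 fold change, *Dscam* del17/del17 minus WT, on the scale of log2(TPM + 0.1), with its 95% interval from limma for the 32 expressed collagen genes, grouped and coloured by structural class. Only the interval of *Col9a1*, -1.78 to -0.098, lies wholly on 1 side of 0, and the narrowest intervals belong to abundant genes such as *Col18a1* and *Col9a3*.

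The FACIT class had the highest mean level in both genotypes, with 82.5 ± 9.20 TPM in mutant and 93.3 ± 15.3 TPM in WT cerebella. Type IX collagen, best known from the surface of type II fibrils in cartilage, made up most of it. *Col9a1*, on the plus strand of chromosome 1 from 24177610 to 24252684, had 2.71, 2.44, 2.29, 0.631 and 2.22 TPM in mutant replicates 1 to 5 and 4.01, 3.27, 3.62, 3.62 and 3.82 TPM in WT replicates 1 to 5. All mutant values lay below all WT values, and mutant replicate 4 was far below the other mutants. The means were 2.06 ± 0.820 TPM in mutant and 3.67 ± 0.275 TPM in WT cerebella, with a log2 fold change of -0.94 (standard error 0.385, 95% interval -1.78 to -0.098, unadjusted p = 0.032, adjusted p = 0.779 from limma). The exact two-sided permutation test over the divisions into 5 and 5 gave p = 0.0079, which is the smallest it can give and which a gene without overlap takes. Of all tested genes, 0.798% lay lower without overlap and 0.419% higher. Leaving out mutant replicate 4 gave a log2 fold change of -0.58, and leaving out WT replicate 5 gave -0.925.

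The other chains of the same protein did not share this separation. *Col9a2* had 5.13, 13.1, 14.4, 15.0 and 18.1 TPM in the mutant libraries and 11.4, 8.39, 18.2, 16.4 and 43.8 TPM in the WT libraries. The groups overlapped, the highest value was that of WT replicate 5, and the log2 fold change of -0.45 (standard error 0.440) became -0.10 without that library. *Col9a3* had 45.3, 46.2, 43.5, 41.5 and 56.9 TPM in mutant and 56.1, 42.4, 47.5, 53.4 and 54.6 TPM in WT cerebella. Its groups also overlapped, with a log2 fold change of -0.12 (95% interval -0.387 to 0.142), so that neither a 1.5-fold increase nor a 1.5-fold decrease is within the interval. Per length, *Col9a3* mRNA was far more abundant than *Col9a1* mRNA in every library, and the transcripts of the chains were thus not in equal amounts. Part of *Col9a3*, 6.07% of its exon bases, overlaps *Tcfl5* on the other strand, which had at most 0.326 TPM.

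**Figure D3:**
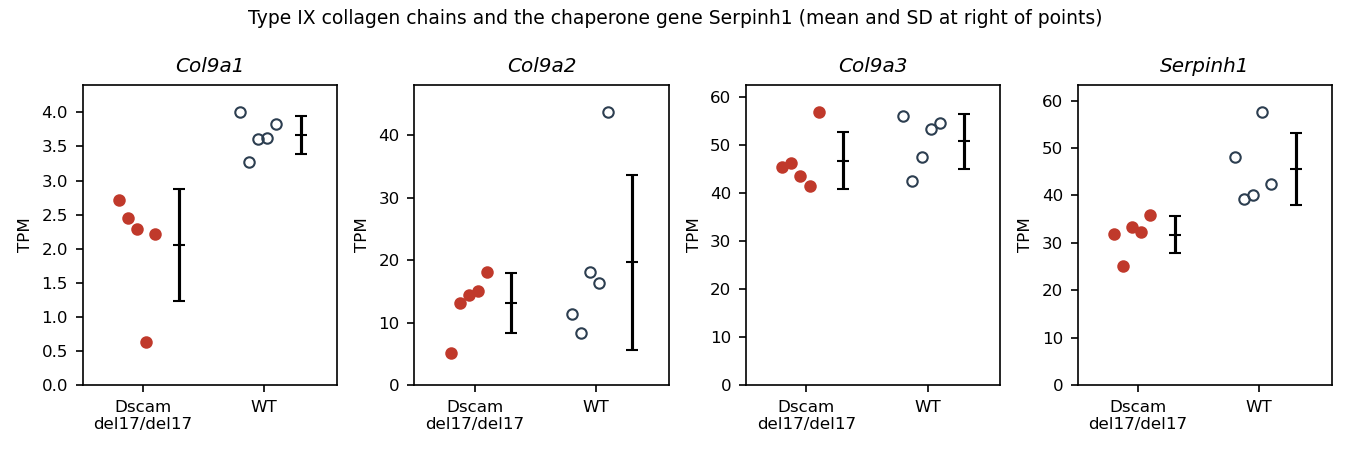
TPM of the 3 chains of type IX collagen and of the collagen chaperone gene *Serpinh1*, on linear axes from 0, each mouse as a point, and bars for mean and SD at the right of each genotype. The groups do not overlap for *Col9a1* and *Serpinh1*, while *Col9a2* and *Col9a3* overlap and WT replicate 5 lies alone at 43.8 TPM for *Col9a2*.

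*Col19a1*, a FACIT gene that neurons can express, is the next collagen gene on chromosome 1, at 24261890 to 24587472 (minus strand), so that the 2 genes end near each other. It had 3.64, 3.34, 1.07, 2.36 and 3.07 TPM in mutant and 2.08, 2.15, 1.84, 1.47 and 0.776 TPM in WT cerebella. In 4 of 5 mutants the value was above every WT value, and mutant replicate 3 lay within the WT range. The log2 fold change was 0.63 (95% interval -0.290 to 1.56), opposite in sign to that of *Col9a1*, with neither past the threshold. Its lowest WT value was that of WT replicate 5, and leaving out this library gave 0.40. The FACIT gene *Col20a1* had 5.25 to 7.24 TPM (median 5.82) in mutant and 6.36 to 8.11 TPM (median 7.04) in WT cerebella, with overlapping groups and a log2 fold change of -0.23 (95% interval -0.633 to 0.181). It shares 1.54% of its exon bases with an annotated transcript on the same strand, BX649560.1, at 6.94 to 18.7 TPM, whose reads may be split with it.

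The fibrillar collagens summed to 66.2 ± 5.50 TPM in mutant and 66.7 ± 9.33 TPM in WT cerebella, and 10 of 11 were expressed, 6 with a positive log2 fold change and 4 with a negative one. The leading gene was *Col11a2*, a minor fibrillar chain of cartilage and the inner ear, with 10.8, 15.2, 14.2, 13.6 and 22.5 TPM in mutant and 12.2, 11.9, 15.3, 16.7 and 16.6 TPM in WT cerebella. The groups overlapped fully, and the log2 fold change of 0.04 changed sign under 4 of 21 other settings. *Col27a1*, a fibrillar collagen of cartilage, had 9.92 to 18.8 TPM (median 11.5) in mutant and 8.07 to 15.2 TPM (median 11.2) in WT cerebella, with a log2 fold change of 0.16 (95% interval -0.337 to 0.650).

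Type I collagen, the main protein of meningeal and connective tissue fibrils, had less mRNA per length than type IV collagen. *Col1a2* had 9.61, 12.4, 8.02, 6.13 and 8.19 TPM in mutant and 12.2, 6.91, 7.08, 14.8 and 12.3 TPM in WT cerebella (log2 fold change -0.23, standard error 0.271). *Col1a1* had 2.72, 5.18, 6.57, 4.31 and 4.11 TPM in mutant and 5.17, 6.19, 6.53, 7.42 and 3.52 TPM in WT cerebella (log2 fold change -0.34, standard error 0.295). In both genes the groups overlapped widely. The protein needs more *Col1a1* than *Col1a2* chains, but the ratio of their TPM, *Col1a1* over *Col1a2*, was under 1 in all 10 libraries, at 0.545 ± 0.216 in mutant and 0.606 ± 0.288 in WT cerebella. *Col3a1*, which encodes the partner fibril type III, stood to *Col1a1* at 0.873 ± 0.265 in mutant and 0.759 ± 0.245 in WT cerebella. *Col5a1*, whose product starts fibril assembly, had 11.6, 11.1, 9.36, 6.58 and 8.45 TPM in mutant and 9.31, 9.25, 8.84, 12.2 and 9.61 TPM in WT cerebella, with a log2 fold change of -0.08 (95% interval -0.516 to 0.351). *Col5a3*, a minor chain of the same fibrils, had 3.10 to 5.09 TPM (median 4.71) in mutant and 2.43 to 5.56 TPM (median 3.25) in WT cerebella (log2 fold change 0.33, standard error 0.289). Its highest WT value was again that of WT replicate 5, the groups overlapped, and leaving out this library gave a log2 fold change of 0.52.

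The main chains of basement membrane collagen, *Col4a1* and *Col4a2*, varied little between mice, with highest values 1.47 and 1.46 times the lowest. *Col4a1* had 17.0, 19.9, 16.7, 15.7 and 22.9 TPM in mutant and 21.9, 23.0, 17.4, 19.8 and 22.4 TPM in WT cerebella, with a log2 fold change of -0.19 (95% interval -0.512 to 0.136). *Col4a2* had 13.4, 18.7, 17.6, 13.3 and 17.1 TPM in mutant and 19.4, 16.8, 15.5, 16.3 and 16.0 TPM in WT cerebella, with a log2 fold change of -0.08 (95% interval -0.406 to 0.248). In both, the groups overlapped and the interval leaves out a 1.5-fold change in either direction. These 2 genes lie head to head on chromosome 8, with start sites at 11312826 (*Col4a1*, minus strand) and 11312805 (*Col4a2*, plus strand) and 22 bases of their first exons in common. The ratio of *Col4a1* to *Col4a2* was 1.16 ± 0.157 in mutant and 1.25 ± 0.129 in WT cerebella, and its highest value was 1.48 times its lowest, against 3.26 times for *Col1a1* over *Col1a2* and 12.6 times for *Col9a1* over *Col9a2*. *Col4a3* and *Col4a4*, which have 71 bases between their start sites on chromosome 1, were both below the expression limit. As a class, basement membrane chains summed to 37.3 ± 4.96 TPM in mutant and 40.4 ± 3.89 TPM in WT cerebella.

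Type VI collagen showed unequal values of its chains, and the beaded filament class summed to 25.8 ± 5.53 TPM in mutant and 22.7 ± 4.01 TPM in WT cerebella. *Col6a2* had 16.9, 11.5, 10.1, 4.50 and 10.9 TPM in mutant and 6.28, 4.91, 4.50, 10.3 and 5.93 TPM in WT cerebella. Of the mutants, 3 lay above every WT value, whereas mutant replicate 4 was as low as the lowest WT library. The means were 10.8 ± 4.40 TPM in mutant and 6.38 ± 2.30 TPM in WT cerebella, and the log2 fold change of 0.69 (95% interval -0.060 to 1.44) had an adjusted p of 0.779 from limma. It was 0.97 without mutant replicate 4 (unadjusted p = 0.0054, adjusted p = 0.898 from limma). *Col6a1*, which lies beside *Col6a2* on chromosome 10, had 16.5, 12.4, 14.5, 13.7 and 12.6 TPM in mutant and 16.2, 15.7, 12.5, 16.9 and 15.4 TPM in WT cerebella. Its groups overlapped, and its log2 fold change was -0.14 (95% interval -0.461 to 0.187). *Col6a1* over *Col6a2* was thus 1.54 ± 0.860 in mutant and 2.56 ± 0.573 in WT cerebella, and 4 of 5 mutant ratios, 0.979 to 1.44, lay below every WT ratio, while that of mutant replicate 4 was 3.05. *Col6a3*, which encodes the third chain and was chosen for mention after its values were seen, had 0.444 to 2.11 TPM in mutant and 0.316 to 1.17 TPM in WT cerebella, and so its mRNA was the scarcest of the trimer in every library. In the hexagonal network class, which summed to 3.40 ± 1.88 TPM in mutant and 3.61 ± 1.37 TPM in WT cerebella, *Col8a1*, known from vessel walls and the cornea, had 1.09 to 3.02 TPM (median 1.67) in mutant and 1.04 to 2.41 TPM (median 2.12) in WT cerebella, with a log2 fold change of 0.11 (standard error 0.412) that changed sign under 7 of 21 other settings.

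**Figure D4:**
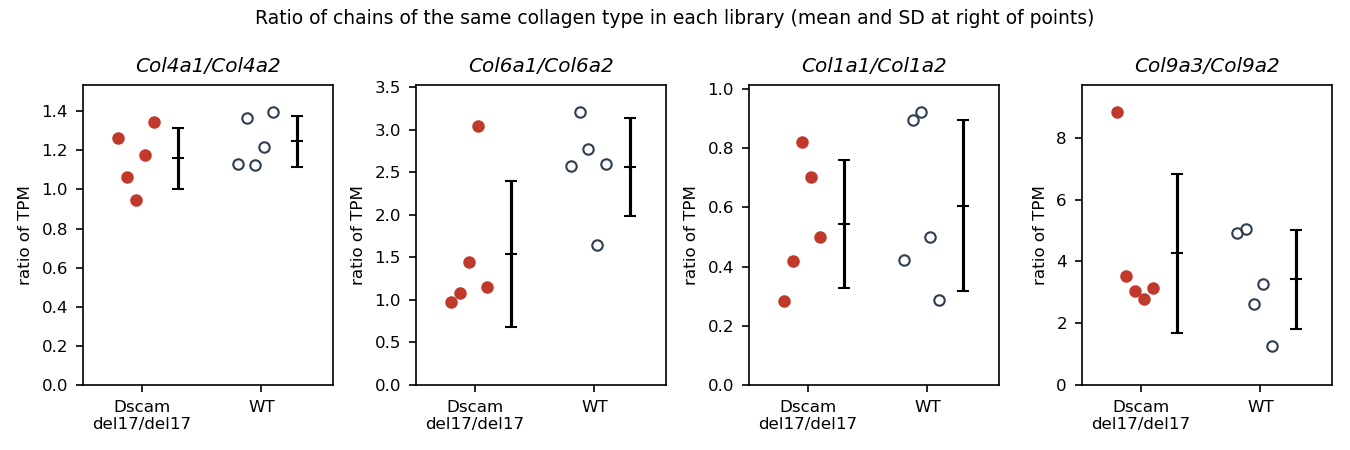
Ratio of the TPM of chains of the same collagen type in each library, on linear axes from 0, with the mean and SD at the right of the points of each genotype. *Col4a1* over *Col4a2* stays between 0.946 and 1.40 in all 10 libraries. *Col6a1* over *Col6a2* is between 0.979 and 1.44 in 4 mutants and between 1.64 and 3.21 in WT cerebella. In mutant replicate 4 it is 3.05, within the WT range.

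The multiplexin *Col18a1*, at 77052178 to 77166548 of chromosome 10 (minus strand), had 85.7, 80.5, 67.0, 53.2 and 63.7 TPM in mutant and 69.3, 62.4, 71.9, 72.6 and 60.6 TPM in WT cerebella. Both the highest and the lowest value were those of mutants, and the log2 fold change was 0.04 (95% interval -0.255 to 0.332). The other multiplexin, *Col15a1*, was near the expression limit, with 0.159 to 0.525 TPM (median 0.326) in mutant and 0.304 to 0.779 TPM (median 0.575) in WT cerebella and a log2 fold change of -0.58 (standard error 0.499). It passed the limit in 5 libraries, which were WT replicates 1 to 4 and mutant replicate 3. The limit thus favoured a lower mutant level. Without WT replicate 5 its groups did not overlap, with 0.525 TPM as the highest mutant value and 0.537 TPM as the lowest WT value. In that setting, 2.1% of all tested genes did not overlap.

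The transmembrane collagens summed to 18.5 ± 3.22 TPM in mutant and 15.3 ± 3.61 TPM in WT cerebella. All 3 expressed members had a log2 fold change above 0, but that of *Col23a1* was -0.0028 without WT replicates 3 and 5. *Col23a1*, the most abundant of them, had 12.6, 12.8, 9.38, 8.15 and 8.59 TPM in mutant and 11.5, 8.32, 8.09, 10.9 and 5.29 TPM in WT cerebella (log2 fold change 0.25, 95% interval -0.289 to 0.783). *Col17a1*, which anchors epithelial cells in hemidesmosomes, had 5.97, 4.06, 3.08, 3.45 and 5.13 TPM in mutant and 2.96, 3.95, 3.73, 4.14 and 1.77 TPM in WT cerebella (log2 fold change 0.40, 95% interval -0.287 to 1.08). In both, the lowest value was that of WT replicate 5 and the groups overlapped, and leaving out this library gave 0.08 for *Col23a1* and 0.19 for *Col17a1*. *Col7a1*, which forms the anchoring fibrils of skin, had 3.71, 4.72, 5.32, 4.87 and 5.79 TPM in mutant and 7.61, 5.51, 5.95, 13.8 and 3.65 TPM in WT cerebella. The log2 fold change of -0.45 (standard error 0.325) became -0.18 when WT replicate 4 was left out and -0.66 when WT replicate 5 was. The 11 expressed genes not described so far, counting *Col3a1* and *Col6a3*, had log2 fold changes of -0.48 to 0.33 (-0.64 to 0.18 when WT replicate 5 was left out), and all their groups overlapped.

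**Figure D5:**
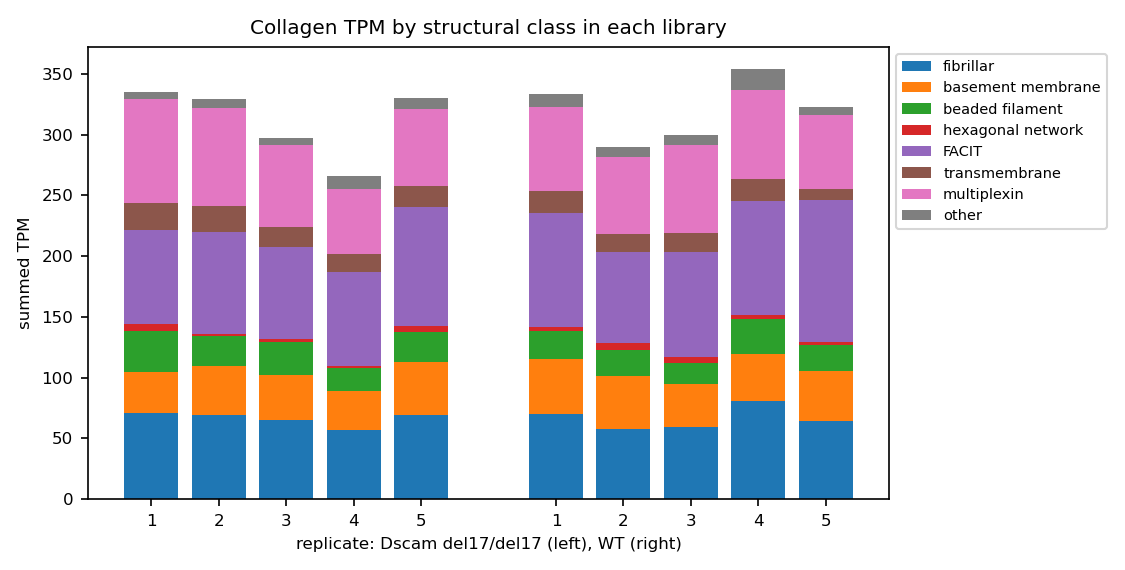
Summed TPM of the 44 collagen genes in each library, stacked by structural class from 0, with the *Dscam* del17/del17 libraries at the left and the WT libraries at the right. The totals run from 266 to 335 TPM in mutant and from 290 to 355 TPM in WT cerebella, and FACIT, multiplexin and fibrillar genes make up most of each bar.

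Collagen chains are hydroxylated, folded, cut and cross-linked by dedicated enzymes before they function in the matrix. Of 79 such partner genes and matrix partners, 78 were found and 64 were expressed, 31 positive and 33 negative in log2 fold change (median -0.02). None passed the threshold, and 0 were higher and 2 lower at an unadjusted p under 0.05, a share close to the 3.26% of all tested genes that were lower. Both are in the list of folding, secretion and cleavage genes, which had 3 positive and 5 negative members of 8 expressed. *Serpinh1*, which encodes the collagen chaperone HSP47 and lies on chromosome 7 from 99345376 to 99353239, had 31.8, 25.2, 33.3, 32.4 and 35.8 TPM in mutant and 48.2, 39.2, 40.2, 57.6 and 42.5 TPM in WT cerebella. All mutant values were below all WT values, as in 0.798% of all tested genes, with means of 31.7 ± 3.94 TPM in mutant and 45.5 ± 7.61 TPM in WT cerebella. The log2 fold change was -0.52 (standard error 0.14, adjusted p = 0.779 from limma), and the exact two-sided permutation test gave p = 0.0079, again the smallest it can give. *Pcolce*, which encodes an enhancer of procollagen cleavage, had 10.8, 7.48, 9.45, 5.98 and 12.9 TPM in mutant and 11.7, 11.7, 11.9, 20.4 and 14.7 TPM in WT cerebella (log2 fold change -0.60, standard error 0.245). One mutant value, that of replicate 5, lay within the WT range.

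Among hydroxylases and lysyl-modifying enzymes, 13 were expressed, 8 above 0 and 5 below. *P4hb*, a subunit of prolyl hydroxylase, had 77.6 ± 7.67 TPM in mutant and 70.6 ± 11.9 TPM in WT cerebella, and *Colgalt1*, which adds galactose to hydroxylysine, had 41.7 ± 6.78 TPM in mutant and 47.0 ± 3.89 TPM in WT cerebella. The cross-linking oxidases were scarce, 3 being expressed (1 above 0 and 2 below), with 2.14 ± 0.663 TPM of *Lox* in mutant and 1.72 ± 0.649 TPM in WT cerebella. Of the 7 expressed receptors, 3 were above 0 and 4 below, and *Ddr1*, a receptor tyrosine kinase for collagen, had 68.7 ± 7.91 TPM in mutant and 73.5 ± 4.73 TPM in WT cerebella. *Itgb1*, the integrin subunit shared by collagen receptors, had 30.1 ± 4.13 TPM in mutant and 24.6 ± 10.8 TPM in WT cerebella, with overlapping groups and a log2 fold change of 0.43 that was 0.12 when WT replicate 5 was left out. Of the laminins and other basement membrane partners, 6 were above 0 and 7 below, and *Lama4*, a laminin chain of vessels, had 3.74 ± 1.40 TPM in mutant and 2.04 ± 1.15 TPM in WT cerebella (log2 fold change 1.09, standard error 0.611, and 0.49 when WT replicate 5 was left out). Of the 11 expressed fibril partners, 6 were above 0 and 5 below. *Sparc*, a collagen-binding protein of astroglia, was the most abundant partner at 732 ± 86.4 TPM in mutant and 716 ± 157 TPM in WT cerebella. Inhibitors and enzymes of collagen breakdown were split as evenly, 4 above 0 and 5 below, with *Timp4* at 54.0 ± 6.16 TPM in mutant and 54.9 ± 4.55 TPM in WT cerebella.

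Markers of cell types that make or border on collagen were set beside these values, and none passed the threshold after adjustment. Among all 17168 tested genes, 7555 had a log2 fold change below 0. Of 10 meningeal fibroblast markers, all expressed, 9 were below 0, with summed levels of 65.4 to 88.9 TPM in mutant and 63.8 to 123 TPM in WT cerebella. The lowest WT sum was that of WT replicate 5, and the other 4, at 91.6 to 123 TPM, lay above every mutant sum. *Slc6a13*, a GABA transporter of the meninges, had 5.83 ± 1.88 TPM in mutant and 12.2 ± 2.28 TPM in WT cerebella. It was lower without overlap, as were 0.798% of all tested genes. Of 7 pericyte markers, 6 were below 0, with sums of 98.7 to 126 TPM in mutant and 117 to 154 TPM in WT cerebella. Here too WT replicate 5 had the lowest WT sum, and the other 4 (129 to 154 TPM) lay above every mutant sum. With all libraries, the genotypes overlapped in both lists. Leaving out WT replicate 5 also raised the share of all tested genes without overlap, from 1.22% to 2.1%. All 4 expressed vascular smooth muscle markers, of 5, were below 0 with an unadjusted p under 0.05, a level at which 3.26% of all tested genes were lower, with sums of 44.8 to 62.6 TPM in mutant and 60.5 to 80.8 TPM in WT cerebella. Endothelial markers were mixed with all libraries, 4 above 0 and 5 below, with sums of 172 to 205 TPM in mutant and 157 to 224 TPM in WT cerebella. The lowest WT sum was again that of WT replicate 5, and most of the 4 fell below 0 without this library. Choroid plexus markers summed to 1942 to 3419 TPM in mutant and 1803 to 3425 TPM in WT cerebella. Of 8 cartilage and bone markers, 4 were expressed and 2, *Matn3* and *Ibsp*, were at 0 in all libraries, with sums of 3.54 to 7.20 TPM in mutant and 5.09 to 11.7 TPM in WT cerebella. Markers of other cells were also uneven in direction. Of 8 granule cell markers, 7 were below 0. Of 7 Purkinje cell markers, 6 were above 0, as were 6 of 7 markers of molecular layer and Golgi interneurons. All 7 oligodendrocyte markers were above 0, with sums of 2801 to 3322 TPM in mutant and 1824 to 2815 TPM in WT cerebella. All 5 erythroid markers were above 0 too, with sums of 1536 to 2698 TPM in mutant and 1065 to 1795 TPM in WT cerebella. Of 10 brainstem and midbrain markers, 3 were expressed, all above 0. *Dbh* was among them only through the mutants, at 0.685 to 1.45 TPM, beside 0 to 0.458 TPM in WT cerebella. The expression limit thus favoured its direction. The brainstem and midbrain list summed to 5.17 to 7.52 TPM in mutant and 1.55 to 4.88 TPM in WT cerebella, without overlap. Among single tested genes, 0.419% lay higher without overlap. The highest of the list, *Th*, had 3.71 ± 0.645 TPM in mutant and 2.21 ± 0.985 TPM in WT cerebella. Its groups overlapped. Whether the dissected tissue differed between genotypes was not tested. The part of these cell types in the collagen values was not tested.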

How the data were processed

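RNA from the cerebella of 5 *Dscam* del17/del17 and 5 WT mice was sequenced as directional libraries on the Illumina NovaSeq platform. The authors trimmed the reads with Trimmomatic, aligned them to GRCm38 with HISAT2 and deposited TPM per gene from StringTie. The strand setting and annotation release of these steps are not given in the sources used here. TPM keeps no read number, so depth and counting error are unknown, and count-based comparisons were not analysed here.

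Genes were named from GENCODE M21, which lacked 191 of the 53447 identifiers. Genes with at least 0.5 TPM in at least 5 libraries were kept, and log2(TPM + 0.1) was fitted with limma 3.58.1 (R 4.3.3), with a variance trend, no covariates and Benjamini-Hochberg adjustment over all 17168 genes (threshold 0.05, 95% intervals). The fit was tested on simulated data. For single values, an exact permutation test (two-sided) over the divisions of the libraries into 5 and 5 was added. Because the members and lists were chosen with earlier results of these data known, no list was tested. Collagen genes named with full values are the 10 highest by mean, the 10 with the smallest p, those without overlap and the highest of each class. Of each partner or marker list, at most the 2 highest by mean and the 2 with the smallest p are named, besides markers at 0 in all libraries. The p-values rest on the spread between mice. No libraries were duplicates of each other. Alternatives were other added values, filters and scalings, the level of *Xist* as a covariate, array weights, a replicate block, and fits without each single library or without WT replicates 3 and 5 together. Protein sequences were not used here.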

Additional observations from a re-analysis of the deposited data

Results flagged for a closer look

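In 97 groups of 5 values (collagen genes and chain ratios within a genotype), 8 held a value far from the other 4 by Dixon's criterion, and chance alone flags about 1 group in 20, here 4.85. WT replicate 5 held 2 of them, with 43.8 TPM of *Col9a2* (next highest WT value 18.2) and 5.56 TPM of *Col5a3* (next 3.31). Mutant replicate 4 held 2, with 0.631 TPM of *Col9a1* (next lowest mutant value 2.22) and a *Col6a1* to *Col6a2* ratio of 3.05 (next 1.44). The others were 1 in each of 4 further libraries. *Col5a1* had 12.2 TPM in WT replicate 4 (next 9.61), *Col11a1* 2.002 TPM in WT replicate 1 (next 0.802), *Col6a3* 2.11 TPM in mutant replicate 3 (next 0.747), and the ratio of *Col9a3* to *Col9a2* was 8.84 in mutant replicate 1 (next 3.53). *Col11a1* and *Col6a3* are outside the rule for named genes and are given for these values.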

How the results depend on the processing

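No collagen gene and no partner gene passed the threshold under any of the 21 alternatives, and the median log2 fold change of the collagen genes ranged from -0.10 to 0.09. Of 644 values, 623 kept their direction and side of the threshold or moved by less than the spread, 17 changed sign and 4 were counts that changed. *Col9a1* was without overlap in all 13 alternatives in which this was counted, and its log2 fold change ranged from -1.08 to -0.58 (unadjusted p from 0.021 to 0.075, adjusted p from 0.523 to 0.919 from limma). The number of collagen genes without overlap was 1, and 1 to 2 with 1 library left out. It was 2 without mutant replicate 3 (*Col19a1* added), WT replicate 1 (*Col11a1*), WT replicate 5 (*Col15a1*) or WT replicates 3 and 5 together (*Col15a1*). At 2, the share of all genes without overlap was 1.88%, 2.62%, 2.1% and 4.66% in these settings, beside 1.22% with all libraries.

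Of the 17 changes of sign, none passed the threshold. Under quantile normalisation, *Col11a2* was at -0.020 and *Col8a1* at -0.030, and with array weights *Col8a1* was at -0.11. With 1 library left out, *Col11a2* ranged from -0.11 to 0.16, *Col8a1* from -0.067 to 0.28, *Col18a1* from -0.040 to 0.13 and *Col5a1* from -0.16 to 0.04. *Col11a2* was at -0.11 without mutant replicate 5, -0.017 without WT replicate 1 and -0.023 without WT replicate 2. *Col8a1* was at -0.052 and -0.067 without mutant replicates 1 and 5, and at -0.0083 and -0.056 without WT replicates 3 and 5. *Col18a1* was at -0.040 and -0.017 without mutant replicates 1 and 2, and *Col5a1* at 0.038 without mutant replicate 4. Without WT replicates 3 and 5 together, *Col9a2* was at 0.061, *Col27a1* at -0.0098, *Col8a1* at -0.26 and *Col23a1* at -0.0028. In that setting the median of all genes was -0.094, against 0.048 with all libraries. The cause was not tested.

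The labels do not say whether the replicate numbers pair the mice. Mutant and WT libraries of the same number deviated together with correlations of 0.0079 to 0.098. Such low values cannot decide it, since littermates need not deviate together. With the replicate block, *Col9a1* was at -0.94 (unadjusted p = 0.045, adjusted p = 0.717 from limma), and 0 collagen genes passed. Summed TPM does not depend on the added value or the filter, so those alternatives gave no value for it. Low genes are limited most by the unknown depth.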
